A study of Mus musculus with 4 samples.

Results

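The antiviral interferon-stimulated effector genes are genes that cells switch on in response to interferon and whose proteins recognise or restrict viruses. A list of 43 such mouse genes was chosen by name, with earlier results of these data known. A gene was followed where a probe set of the array names that gene alone. This held for 36 of the 43 members, among 12393 genes named in this way, and where several probe sets name a gene, the one that is brightest on average was read. The other 7 members, Ddx58, Herc6, Isg15, Dtx3l, Samd9l, Ifi44 and Xaf1, were not analysed here as single genes.

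The 4 samples are dishes of synovial fibroblasts, the stromal cells that line the joint, grown from knees of male DBA/1J mice without arthritis that were 8 to 12 weeks old. All dishes shared that origin, 3 to 4 passages and medium with 1% serum, and all were harvested at 6 h. One dish received vehicle, another IL-1β at 5 ng/ml, the third IL-1β and 1 µM indomethacin, and the fourth IL-1β and both drugs, indomethacin and iloprost, at 1 µM each. Indomethacin inhibits the cyclooxygenases, which start the synthesis of every prostanoid, while iloprost mimics prostacyclin and is more stable. Per the series title, the question was how prostacyclin signalling acts on synovial fibroblasts activated by IL-1β. Each treatment has 1 array, so no difference below has an error between dishes, a test or a p-value, and every difference describes these 4 dishes. The effect of iloprost was measured only with IL-1β and indomethacin present, since a dish with iloprost alone is not analysed here.

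Type I interferons bind the receptor made of IFNAR1 and IFNAR2, which activates the kinases JAK1 and TYK2 and leads to the assembly of the factor ISGF3. ISGF3 binds a short DNA element, the interferon-stimulated response element or ISRE, in the promoters of interferon-stimulated genes. Their products include sensors of viral RNA and DNA, proteins that bind or degrade viral RNA, and proteins that block the assembly and release of viruses. Fibroblasts and macrophages both carry this programme, and low continuous interferon signalling keeps many of its genes active in cells without infection.

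Signals were scaled so that the median gene was equally bright on every array, with factors from 0.915 to 1.07, and all signals below are on this scale. Signals under 37.7, the 50th percentile over all arrays, were raised to that value, the floor, and log2 ratios were taken between arrays. Across 6232 genes above the floor everywhere, log2 signals of any 2 arrays correlated across genes with r from 0.94 to 0.99. Of 15 fibroblast markers, 15 were above the floor on at least 1 array, with a summed signal from 35488 to 38316. All 20 macrophage markers were as well, with none at the floor on every array and a summed signal from 34346 with both drugs to 40334 with vehicle. The dishes thus held RNA of both marker sets, while 9 lymphocyte markers and 9 of 10 endothelial markers were at the floor on every array. With RNA from whole dishes, fewer cells of a type and less RNA per cell cannot be told apart.

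Promoter letters of the ISRE were looked for in the members, since ISGF3 binds this element. RefSeq promoter windows of assembly GRCm38.p6, from 250 bases before to 50 after an annotated start, were found for 25 of the 36 measured members. The ISRE core was searched on both strands as GAAA, 2 bases of any kind and GAAA. It was present for 12 of these 25 members, or 48.0%, and for 4.08% of the 5730 measured genes with a window. A gene was counted where any of its windows held the letters, with 1.40 windows per member and 1.30 per measured gene. The 13 members without them include Ifit2 and Cmpk2, which had the lowest ratios with iloprost. The motif for NF-κB, GGGA, 4 bases of any kind and CC, was present for 8 of the 25 members and 30.3% of the measured genes. The cAMP response element, TGACGTCA, was present for 0 of the 25 members and 3.61% of the measured genes, and the STAT motif TTC, 3 bases of any kind and GAA for 8 of the 25 and 8.10%. Overlapping matches of one motif were counted separately, and no match says only that these letters are not in this window. The last 160 bases before the start follow for 5 members with the ISRE letters, which are in capitals, and for Cmpk2, which has none in its window.
Ifit3, chr19:34583369-34583528, plus strand: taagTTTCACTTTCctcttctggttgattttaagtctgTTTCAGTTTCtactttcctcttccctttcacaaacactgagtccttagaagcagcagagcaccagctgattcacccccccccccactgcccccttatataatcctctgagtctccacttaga
Ifit1, chr19:34640729-34640888, plus strand: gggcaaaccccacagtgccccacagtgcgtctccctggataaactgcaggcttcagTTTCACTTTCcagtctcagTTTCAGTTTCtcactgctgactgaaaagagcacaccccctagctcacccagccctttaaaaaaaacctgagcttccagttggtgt
Rsad2, chr12:26456453-26456612, minus strand: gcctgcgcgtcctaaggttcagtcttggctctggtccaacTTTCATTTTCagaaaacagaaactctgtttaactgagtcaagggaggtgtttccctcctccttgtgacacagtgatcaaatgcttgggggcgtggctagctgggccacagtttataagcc
Bst2, chr8:71537473-71537632, minus strand: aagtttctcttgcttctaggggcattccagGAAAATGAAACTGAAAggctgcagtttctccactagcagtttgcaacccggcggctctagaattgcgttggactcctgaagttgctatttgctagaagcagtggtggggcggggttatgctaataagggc
Oas1a, chr5:120907526-120907685, minus strand: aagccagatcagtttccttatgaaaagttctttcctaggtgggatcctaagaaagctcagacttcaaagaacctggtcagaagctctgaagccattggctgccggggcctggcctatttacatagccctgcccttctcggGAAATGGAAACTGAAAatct
Cmpk2, chr12:26469055-26469214, plus strand: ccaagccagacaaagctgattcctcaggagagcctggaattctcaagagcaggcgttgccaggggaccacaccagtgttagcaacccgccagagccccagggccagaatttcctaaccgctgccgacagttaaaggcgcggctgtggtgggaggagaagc

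The ISRE matches of Ifit3 begin 156 and 122 bases before the start, and those of Ifit1 104 and 85 bases before it. In Bst2 and in Oas1a the capitals are 2 overlapping matches each. A match is a description of the letters and not a measured binding site, and the annotated starts may differ from those used in these cells.

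The members were on in the dish with vehicle. All 36 were above the floor with vehicle, with IL-1β and with IL-1β and indomethacin, and 33 were above it with both drugs. The array with both drugs had the lowest signal for 36 of 36 members, also as deposited. The lowest of the other 3 arrays exceeded it by a median of 3.15-fold, from 1.15-fold for Ifitm3 to 15.4-fold for Ifit2. Among the other 3 arrays the highest signal exceeded the lowest by a median of 1.32-fold and by at most 2.26-fold, for Mx1.

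**Figure D1:**
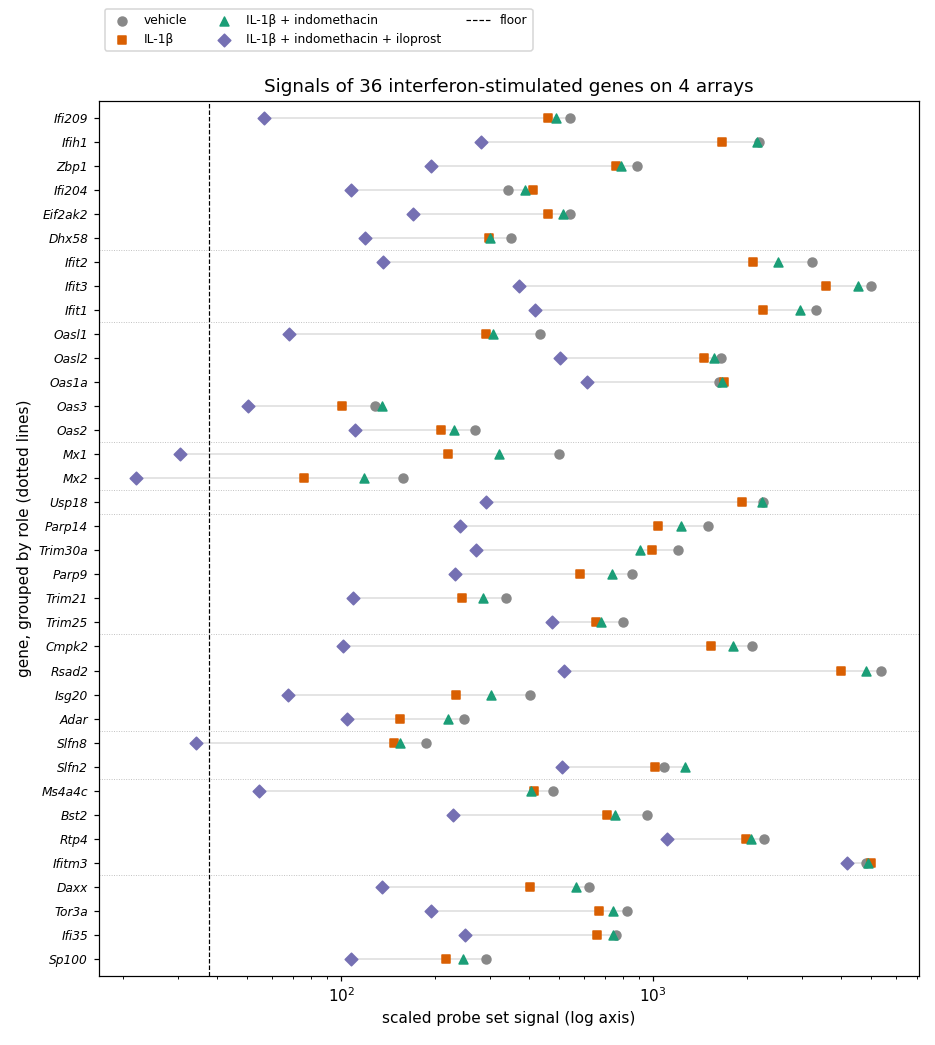
Scaled probe set signal (log axis) of each of the 36 measured members on the 4 arrays, 1 symbol per array, with genes grouped by role and the floor of 37.7 as a dashed line. The diamonds for IL-1β with indomethacin and iloprost lie to the left of the other 3 symbols in all 36 genes, and lie below the floor for Mx1, Mx2 and Slfn8.

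The members were not higher with IL-1β than with vehicle. In this comparison, 0 of 36 were at least 2-fold higher, where 1.77% of 6935 measured genes were, and 2 were at least 2-fold lower, Mx1 and Mx2, where 0.519% of all genes were. The member median was -0.36 on the log2 scale against -0.01 for all measured genes, with 33 members below 0 and 3 above it, Ifi204, Oas1a and Ifitm3. As deposited, every ratio of this comparison is higher by 0.23, the member median was -0.13 with 27 below 0, and no member was 2-fold lower.

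Indomethacin added to IL-1β gave small differences the other way. Of the 36 members, 0 were at least 2-fold higher and 0 at least 2-fold lower, against 0.248% and 0.672% of 6848 measured genes. The member median was 0.17 against 0.00 for all genes, with 31 members above 0, or 0.03 and 22 members as deposited, where each ratio is lower by 0.15. This comparison and the one of IL-1β against vehicle share the IL-1β array, so a deviation of that array alone moves both, in opposite directions. Against vehicle, which avoids that array, IL-1β with indomethacin had a member median of -0.17, with 31 below 0 (26 as deposited). No member was at least 2-fold higher or lower there, against 1.35% and 0.32% of all genes.

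The members were lower as a group when iloprost was added to IL-1β and indomethacin. At least 2-fold lower were 33 of 36, or 91.7%, against 3.21% of 7002 measured genes, and 0 were at least 2-fold higher, against 1.99%. All 36 were below 0, with a median of -1.80, a 3.49-fold difference, where the median of all genes was 0.04. At least 4-fold lower were 16 members of 54 such genes in all, and at least 8-fold lower 6 members of 14. Members were 10 of the 20 genes with the lowest ratios of this comparison. The list was chosen with earlier results of these data known, so these counts describe it and are no independent support. The 3 members within 2-fold were Rtp4, Trim25 and Ifitm3.

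**Figure D2:**
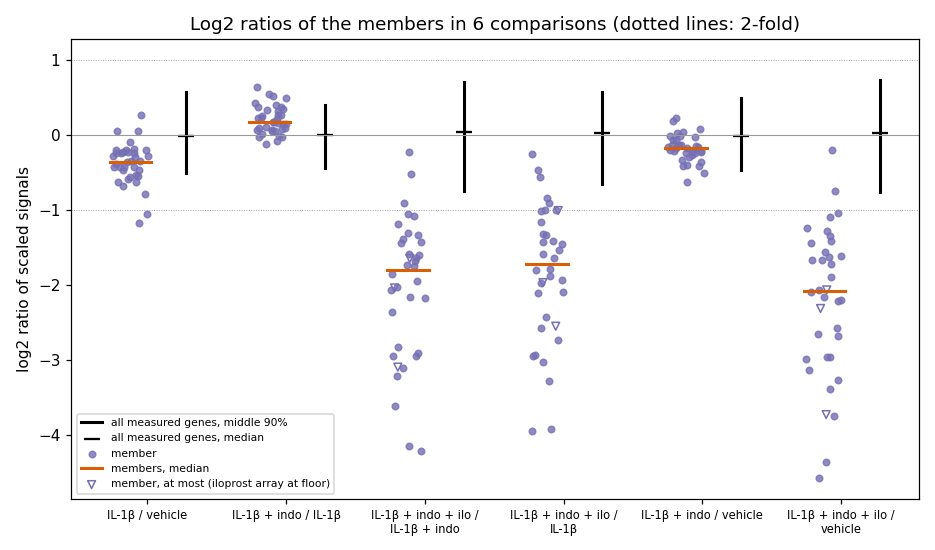
Log2 ratio of scaled signals (vertical axis) of the 36 members in the 6 comparisons between the 4 arrays, 1 point per gene, with bounds as open triangles, the member median as a horizontal bar, and the median and middle 90% of all measured genes in black. Member medians lie at -1.80, -1.71 and -2.08 in the comparisons that set the iloprost array against another, and between -0.36 and 0.17 in the others.

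The IFIT proteins bind viral RNA through tandem repeats and interfere with its translation. In the order vehicle, IL-1β, IL-1β with indomethacin, IL-1β with both drugs, the signals of Ifit2 were 3232, 2091, 2513 and 136. Those of Ifit3 were 4988, 3598, 4539 and 372, and those of Ifit1 were 3328, 2250, 2962 and 420. All 3 genes were high on the first 3 arrays and much lower on the fourth, though above the floor there. With iloprost their log2 ratios were -4.21, -3.61 and -2.82, so Ifit2 kept 5.42% of its level with indomethacin, Ifit3 8.19% and Ifit1 14.2%. The ratio of Ifit2 was the lowest of the 36 members and the fifth lowest of all measured genes. With IL-1β against vehicle the 3 genes stood at -0.63, -0.47 and -0.56.

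Another group of members encodes enzymes that act on nucleotides and RNA. Rsad2 encodes viperin, a radical SAM enzyme that makes a chain-terminating nucleotide, and its neighbour Cmpk2 encodes a nucleotide kinase that supplies it. Cmpk2 had signals of 2071, 1537, 1799 and 102, in the same order, and an iloprost ratio of -4.15. Rsad2 had 5395, 3997, 4805 and 517, and a ratio of -3.21. With iloprost, 5.64% and 10.8% of their levels with indomethacin remained. Isg20, an exonuclease that degrades RNA, had 402, 233, 303 and 67.6, and a ratio of -2.16. Adar, which edits adenosine to inosine in double-stranded RNA, had 247, 154, 220 and 105. Its iloprost ratio was -1.07, close to the 2-fold threshold, and its ratio against IL-1β alone was -0.56. Adar was lowest with both drugs, like the other 3 enzymes.

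The Mx proteins are dynamin-like GTPases that trap viral nucleoproteins. Mx1 had signals of 498, 220, 321 and 30.3, and Mx2 158, 75.8, 118 and 22.0. Both were at the floor on the array with both drugs, so their iloprost ratios are bounds, at most -3.09 for Mx1 and at most -1.64 for Mx2. These were the 2 members that were also 2-fold lower with IL-1β against vehicle, at -1.18 and -1.06. They had the highest member ratios with indomethacin, 0.54 and 0.64, which share the IL-1β array with the former. Against vehicle, IL-1β with indomethacin gave -0.63 and -0.42. On the signals as deposited neither passed 2-fold with IL-1β.

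OAS proteins bind double-stranded RNA and make the second messenger that activates RNase L, while their relative Oasl1 lacks that activity and restrains the translation of Irf7. Oasl1 had signals of 436, 291, 306 and 68.0, Oasl2 1651, 1455, 1570 and 502, and Oas1a 1627, 1685, 1669 and 613. Iloprost ratios were -2.17 for Oasl1, -1.65 for Oasl2 and -1.44 for Oas1a. Oas1a was among the 3 members that were not below 0 with IL-1β against vehicle, and its first 3 signals were nearly level. Oas3 had 128, 101, 135 and 50.2, and Oas2 268, 208, 231 and 111. Their iloprost ratios were -1.42 and -1.06. All 5 were lower by 2-fold or more with iloprost. The near-identical mouse Oas1 genes can share probe signal with Oas1a.

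Sensors detect viral nucleic acid and start interferon production. Ifih1, which encodes the RNA sensor MDA5, had signals of 2184, 1666, 2158 and 281, and an iloprost ratio of -2.94. Dhx58, which encodes the related regulator LGP2, had 350, 297, 300 and 119, and a ratio of -1.34. Eif2ak2 encodes PKR, which stops translation when it binds double-stranded RNA, and had 541, 459, 515 and 171, with a ratio of -1.59. Zbp1, a sensor of Z-form nucleic acid that can start necroptosis, had 891, 762, 790 and 194, with a ratio of -2.03. In each of these 4 genes the first 3 arrays were close and the fourth was lower. Ifi204 and Ifi209 are members of the interferon-inducible p200 family of nuclear DNA-binding proteins. Ifi209 had 542, 459, 487 and 56.5, and a ratio of -3.11. Ifi204 had 342, 411, 389 and 108, and a ratio of -1.86. Its IL-1β ratio of 0.27 was the highest of the 36 members. The p200 genes are similar in sequence, and probe sets can read more than one of them.

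Usp18 removes ISG15 from proteins and restrains signalling at the interferon receptor. Its signals were 2261, 1933, 2241 and 292, and its iloprost ratio was -2.94. It was the only measured gene of the ISG15 system, since Isg15 and Herc6 were not analysed here.

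Ligases and ADP-ribosyltransferases modify proteins of this pathway. The ADP-ribosyltransferase gene Parp14 had signals of 1503, 1034, 1229 and 240, with an iloprost ratio of -2.36. Parp9, which acts with the ubiquitin ligase DTX3L, had 854, 583, 737 and 231, with a ratio of -1.67. Trim30a, a TRIM protein that restrains Toll-like receptor signalling, had 1205, 993, 910 and 270, with a ratio of -1.75. These 3 genes were among the 31 of 36 members that were highest with vehicle after scaling. That count depends on the scaling, while these 3 genes were highest with vehicle as deposited too. With iloprost 19.5%, 31.3% and 29.7% of their levels with indomethacin remained. Trim21, a cytosolic antibody receptor, had 338, 244, 285 and 109, with a ratio of -1.38. Trim25, the ligase that activates the sensor RIG-I, had 798, 657, 683 and 474. Its ratio of -0.53 was within 2-fold, and 69.5% of the indomethacin level remained.

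Proteins at membranes block entry and release. Bst2 encodes tetherin, which holds budding virions at the cell surface, and had signals of 954, 711, 756 and 228, with an iloprost ratio of -1.73. Ms4a4c, a membrane-spanning protein of leukocytes, had 476, 414, 407 and 54.4, with a ratio of -2.90. Both were lowest on the array with both drugs. Rtp4, a receptor-transporting protein, had 2270, 1984, 2067 and 1107, with a ratio of -0.90. Ifitm3, which blocks fusion of virus and endosome, had 4808, 4984, 4903 and 4193, with a ratio of -0.23. Ifitm3 had the smallest ratio of the 36 members in the comparison with iloprost, and 85.5% of its level remained. Its window holds 2 ISRE matches, which begin 2 and 19 bases after the start.

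Schlafen proteins restrain cell growth, and some of them protein synthesis. Slfn8 had signals of 187, 147, 155 and 34.3, with the last at the floor, and an iloprost ratio of at most -2.04. Slfn2 had 1082, 1013, 1263 and 509, with a ratio of -1.31. Slfn2 was also at -0.99 against IL-1β alone, just inside 2-fold. The nuclear-body gene Daxx, a histone chaperone, had 623, 404, 567 and 135, with a ratio of -2.07, and Sp100 had 290, 217, 245 and 107, with a ratio of -1.19. Ifi35 had 759, 663, 746 and 249, with a ratio of -1.58. Tor3a, a torsin ATPase, had 825, 671, 746 and 194, with a ratio of -1.94. All 6 of these genes were lowest with both drugs.

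The position of the genes was not used to choose them. By the order of protein-coding genes in RefSeq, 5 pairs of measured members are direct neighbours, Ifit2 with Ifit3, Rsad2 with Cmpk2, Oasl2 with Oasl1, Oas2 with Oas3, and Slfn8 with Slfn2. The iloprost ratios of the 2 genes differed by 0.60, 0.93, 0.52, 0.37 and at least 0.73 in these pairs, the last against a bound for Slfn8. The 36 members span from -4.21 to -0.23. Members were also described by the presence of the ISRE letters. The 12 with them had a median iloprost ratio of -1.74, from -3.61 to -0.23, and the 13 without had -2.07, from -4.21 to -0.53.

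The array with both drugs was set against the other arrays as well. Against IL-1β alone, 30 of 36 members were at least 2-fold lower, against 2.45% of 6988 measured genes, and 0 were higher, against 0.887%. The median was -1.71, and the 6 within 2-fold were Ifitm3, Trim25, Adar, Rtp4, Oas2 and Slfn2. Against vehicle, 34 of 36 were at least 2-fold lower, against 3.33% of 7047 genes, and 0 were higher, against 2.8%. There the median was -2.08, a 4.22-fold difference, and Trim25 and Ifitm3 were within 2-fold. These members were therefore below the level of the dish without IL-1β and not only below that of stimulated dishes. The 3 comparisons share the iloprost array and are not independent.

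IL-1β against vehicle and iloprost against indomethacin share no array. Across the 36 members their log2 ratios had a Pearson r of 0.32 and a Spearman rho of 0.37, and across 6787 measured genes 0.20 and 0.11, all given as descriptions since genes on the same arrays are not independent replicates. Mx1, Isg20, Ifit2 and Daxx were low in both, while Adar was among the lowest with IL-1β and not with iloprost. Mx2 was also among the lowest with IL-1β, but its iloprost ratio is a bound, so its place there is not known. Cmpk2 and Rsad2 were among the lowest with iloprost and near the member median with IL-1β, both at -0.43.

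**Figure D3:**
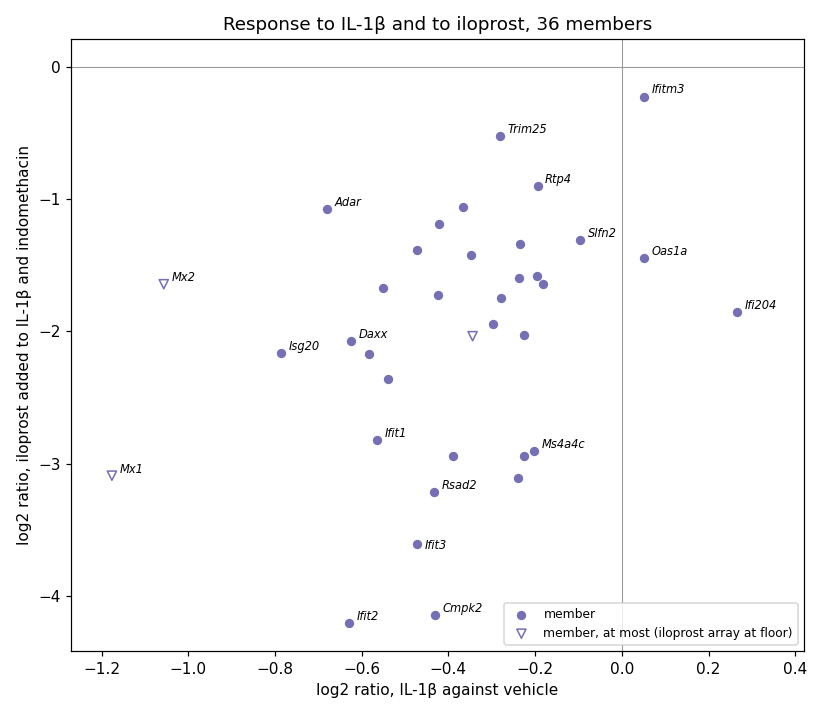
Log2 ratio of IL-1β against vehicle (horizontal) and of iloprost added to IL-1β and indomethacin (vertical) for the 36 members, 1 point per gene, with bounds as open triangles. The vertical spread, from -4.21 to -0.23, is wider than the horizontal one, from -1.18 to 0.27.

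Upstream of the members, the 9 interferon genes with a probe set, among them Ifnb1, were at the floor on every array, so no ratio could be taken. The receptor genes were measured and close to even with iloprost, with 0 of 4 past 2-fold. Ifnar1 had signals of 603, 764, 781 and 745 and Ifnar2 696, 761, 678 and 774. Their iloprost ratios were -0.07 and 0.19, and that of Ifngr1 0.31. Among 11 JAK, STAT and IRF genes, 4 were at least 2-fold lower and 0 higher, with a median of -0.56. Of all measured genes, 3.21% were lower and 1.99% higher by that much. Irf7, the master regulator of interferon-α genes, had 855, 580, 662 and 180 with a ratio of -1.88. Stat2, a subunit of ISGF3, had 438, 316, 336 and 108 with a ratio of -1.64. Irf8 and Irf1 stood at -1.51 and -1.25, and Irf9, the DNA-binding subunit of ISGF3, at -0.53. Several of these factors are themselves induced by interferon.

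Of 11 measured pattern receptors and adaptors, 2 were lower by at least 2-fold and 0 higher with iloprost, with a median of -0.34. Of all 7002 measured genes, 3.21% were lower and 1.99% higher, the shares to set beside each list with iloprost. The 2 lower ones were the endosomal RNA receptors Tlr3 at -2.31 and Tlr7 at most -2.19, while the LPS receptor Tlr4 was at 0.06 and the adaptor Myd88 at -0.76. Of 7 negative regulators of interferon signalling 1 was lower, the phosphatase gene Ptpn6 at -1.41. Among 19 targets of IL-1 and NF-κB, 3 were lower and 0 higher, Mmp13 at -1.77, Icam1 at -1.30 and Ccl20 at -1.01, with a median of -0.31. In the comparison of IL-1β against vehicle, 9 of these 19 were at least 2-fold higher and 0 lower, with a median of 0.88. There, 1.77% of all measured genes were higher and 0.519% lower. Of 10 measured targets of cAMP and CREB, the pathway that prostacyclin receptors activate, 5 were higher and 0 lower, with Nr4a1 at 2.85, Crem at 2.04 and Nfil3 at 1.60. Of these 10 targets, 6 were at least 2-fold lower with indomethacin added to IL-1β, against 0.672% of all measured genes. Among 4 measured prostanoid receptors of 8 with a probe set, 1 was higher and 2 lower with iloprost, with a median of -0.78. The prostacyclin receptor gene Ptgir had signals of 170, 154, 214 and 83.6 and a ratio of -1.36, Ptger4 was at -1.79 and Ptgfr at 1.64.

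**Figure D4:**
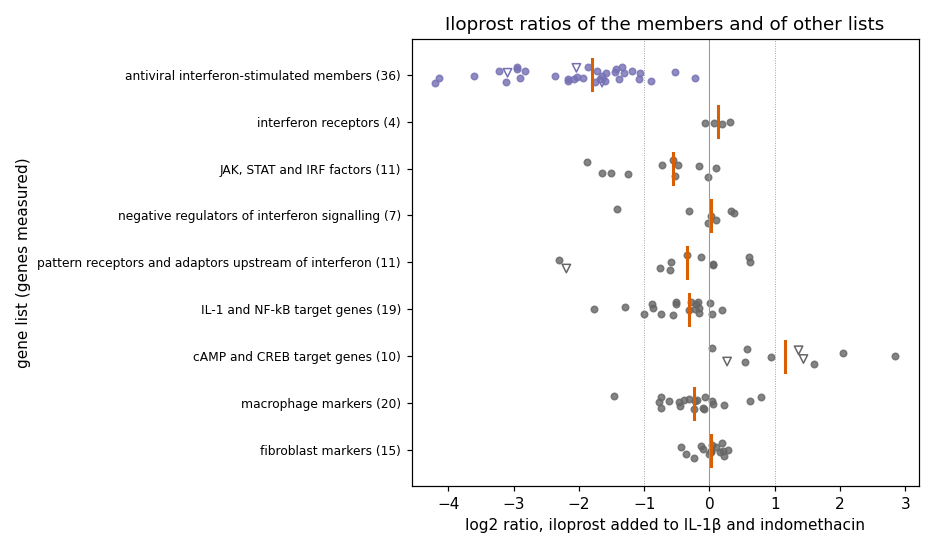
Log2 ratio of iloprost added to IL-1β and indomethacin (horizontal) for the members and 8 other gene lists, 1 point per measured gene, with the median as a vertical bar, bounds as open triangles and 2-fold as dotted lines. The members have a median of -1.80, the JAK, STAT and IRF factors -0.56, the macrophage markers -0.23, the fibroblast markers 0.03 and the cAMP and CREB targets 1.15.

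Most macrophage markers were also below 0 with iloprost, nearly all by less than 2-fold, with a median nearer to 0 than that of the members. Of the 20 macrophage markers, 15 were below 0 with iloprost. Their median was -0.23, where the median of all measured genes was 0.04. Among them 1 was at least 2-fold lower and 0 higher, where 3.21% and 1.99% of all measured genes were. With both drugs against vehicle the marker median was -0.43, with 3 of 20 lower and 1 higher, against 3.33% and 2.8% of all genes. The summed signal of these markers was 37169 with indomethacin and 34346 with iloprost added. Bright markers weigh most in this sum, and some of them were higher with iloprost. The Fc receptor gene Fcgr1, which interferon also induces, was at -1.46, Adgre1 at -0.77 and Fcgr3 at 0.79. Of 8 dendritic cell markers with a probe set, 3 were above the floor, with Cd83 at 1.18, Tcf4 at -0.55 and Bst2, itself a member, at -1.73, while Flt3, Itgax, Xcr1 and Zbtb46 were at the floor on every array. Of the 15 fibroblast markers 0 passed 2-fold, with a median of 0.03 and summed signals of 35937 and 36750. The part of macrophage RNA in the member ratios was not tested. Which of the cell types carried the members' RNA was not measured.

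Agreement between probe sets of a gene gives a measure of noise within an array, not of differences between dishes. Over 2369 genes with several probe sets above the floor, the SD of the iloprost ratio between probe sets of a gene was 0.20 on the log2 scale, and in the 6 comparisons it lay between 0.20 and 0.22. The iloprost ratios of all 36 members are larger in size than it, that of Ifitm3 at -0.23 only just. Among all 7002 measured genes the quartiles of this ratio were -0.18 and 0.25, so ratios larger than this SD are common. Of the members, 12 had several probe sets. For the 9 with more than one above the floor, iloprost ratios of the same gene differed by a median of 0.19 and at most 0.41, for Trim21.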

How the data were processed

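Gene expression was measured on 4 Affymetrix arrays, 1 per treatment, with RNA labelled by standard Affymetrix procedures per the labels. The deposited numbers are intensity readings on a linear scale, 1 for each probe set. The summarisation software, background correction and scaling were not given in the sources used here, and deposited medians ranged from 35.2 to 40.6. Of 22690 probe sets, the annotation of the platform, of unknown age, names 1 gene for 20380, several for 691 and none for 1606, and the rest are controls. The gene numbers of all 36 measured members carry the same symbol in RefSeq.

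Each array was multiplied by 1 factor that equalised the median log2 signal of 6222 genes, then floored, then log2 was taken (Python 3.11.15, numpy 2.4.6, pandas 2.3.3). No ratio was formed where both signals were under the floor, and where 1 was, it is given as a bound. Genes were counted at 2-fold. With 1 array per group no test was run, and so few arrays allow no precision between dishes to be stated. The scripts were tested on simulated data. Members, roles and lists were chosen with earlier results of these data known. The text names every measured member and, of each other list, up to 3 genes with the largest iloprost ratios, a fixed set of pathway genes, and the defining markers found at the floor. Alternatives were the scaling, the floor, the probe set, the fold, the bounds and a pseudocount of 32.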

Additional observations from a re-analysis of the deposited data

How the results depend on the processing

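With iloprost added to IL-1β and indomethacin, between 30 and 34 of the members were lower past the threshold under the 10 alternatives, with medians from -1.90 to -1.60. The median of -1.60, and one of -1.46 for both drugs against IL-1β alone, came from log2 of the signal plus a pseudocount of 32, which compresses ratios of dim genes by construction. IL-1β against vehicle rested on the processing. The count of lower members, 2 in the main setting, was 0 on the signals as deposited (with a median of -0.13), 1 with a floor at the 65th percentile, 1 with the pseudocount and 6 at 1.5-fold, where 0.158%, 0.276%, 0.0726% and 3.52% of all measured genes were lower. At 1.5-fold, 1 member was higher with indomethacin added to IL-1β, against 1.53% of all genes, and 1 was lower with IL-1β and indomethacin against vehicle, against 2.83%. With vehicle highest and IL-1β lowest of the first 3 arrays were 29 members after scaling and 16 as deposited. The other 165 counts and medians stayed within 1.5 times or within the SD between probe sets. No replicate could be left out, since each group has 1 array. No paired analysis was possible because each group has 1 sample. For single genes, 1788 values moved by less than that SD and 139 by more, and none that was past 2-fold changed sign. Signals at the floor give bounds only.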

Other observations

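Some probe sets name a member together with other genes and were not used for single genes. One that names Isg15 and Gm9706 had signals of 3153 with vehicle, 2585 with IL-1β, 2797 with IL-1β and indomethacin and 560 with both drugs. ISG15 is the ubiquitin-like protein that Usp18 removes, and RefSeq lists Gm9706 as a pseudogene. The log2 ratio with iloprost was -2.32, and with IL-1β against vehicle -0.29. A probe set that names Trim30a and Trim30d had 385, 306, 325 and 87.1 in the same order, and a ratio of -1.90 with iloprost, where the probe set of Trim30a alone gave -1.75. One for Ifi204 and 3 other p200 genes had 1049, 1172, 1192 and 369, and a ratio of -1.69, where Ifi204 alone gave -1.86. All 3 were lowest on the array with both drugs.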
